A study of Mus musculus with 106 samples.

Results

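The genes described here are the Ras GTPase activating proteins (Ras GAPs) Nf1, Rasa1, Rasa2, Rasa3, Rasa4, Rasal1, Rasal2 and Dab2ip, which are 8 of the 55401 mouse genes in the count table. The family was selected on measured values, because Rasa4 and Rasal1 differed between Huntington's disease (HD) and control mice in ribosome-bound RNA of cerebellar neurons. HD differences in ribosome-bound RNA of the cerebellum are therefore given as a description, by levels and fold changes without p-values. The counts of genes past the threshold in them stand only beside the share of all genes, and nothing is read from them. Control levels of Rasal1 and Rasa4 in the cerebellar IPs entered the selection too, so contrasts of these 2 genes with those IPs are also given as levels and fold changes. Tests are given for the other contrasts. All 8 members passed the filter on low counts in each comparison.

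Ras proteins are small GTPases that signal while bound to GTP and fall silent once the GTP is hydrolysed. Exchange factors load Ras with GTP, and Ras GAPs end the signal by speeding hydrolysis. In neurons, active Ras passes signals from growth factor receptors and from calcium entry to the RAF, MEK and ERK kinases, a pathway known for its part in synaptic plasticity and activity-dependent transcription.

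HD mice carried an expanded CAG repeat in a single Htt allele (Hdh Q7/Q200) and were compared with Hdh Q7/Q7 controls on a 129S4 background at about 9 months of age. In the Gad2, PV and vGluT2 lines, every animal of both genotypes was also heterozygous for a Cre allele (Gad2-IRES-Cre, PV-IRES-Cre or vGluT2-IRES-Cre) and for RiboTag, an Rpl22 allele that gains a hemagglutinin (HA) tag where Cre is active. Immunoprecipitation (IP) of HA-tagged ribosomes from cerebellum, or from cerebrum without the olfactory bulb, recovered the ribosome-bound mRNA of the targeted neurons, and total RNA was taken from the tissue homogenate. The labels also give a somatostatin (SST) line from the cerebrum, whose Cre allele, strain and age are given nowhere in the sources at hand. The model has limits: which cells contribute to an IP is set by the Cre driver, only Rpl22-tagged ribosomes are captured, and the number of mRNAs on ribosomes is not a protein level. In total there were 106 libraries from 45 mice, 67 from IPs and 39 of total RNA.

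Control and HD libraries numbered 6 and 6 for the cerebral Gad2 IP, 6 and 5 for the PV IP, 6 and 6 for the cerebral vGluT2 IP, and 5 and 4 for the SST IP. The cerebellar Gad2 IP had 6 control and 6 HD libraries, and the cerebellar vGluT2 IP had 5 and 6. Total RNA of the cerebrum comprised 3 control and 3 HD libraries of each of the Gad2, PV and vGluT2 lines, plus 4 control and 3 HD libraries of the SST line. Total RNA of the cerebellum comprised 3 and 3 libraries of the Gad2 line and 4 and 4 of the vGluT2 line, and 13 of these 14 mice also gave a cerebellar IP. Assigned counts ranged from 23256806 to 107753596 per IP library and from 21905238 to 62160034 per total RNA library, with a median of 35866734 over all 106. Levels are given as CPM, the usual scale of counts relative to library size, after scaling of the libraries. A difference was called when its adjusted p was 0.05 or less.

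Some libraries stood apart before any comparison. An HD library labelled as re-sequenced was present in the cerebellar Gad2 IP (93692505 counts), the PV IP (107753596 counts) and the cerebral vGluT2 IP (60611448 counts), and no control library was labelled so, so that the sequencing run and the genotype cannot be told apart for them. Replicate 6 of the HD cerebellar vGluT2 IP had 0 counts for Rasal1 among 34869896, which allows a level of up to 0.0916 CPM (3 counts, counting error only). Replicate 3 of the HD PV IP had summed Purkinje and granule cell markers of 1859 and 633 CPM, against 247 to 280.0 and 244 to 299 CPM in the other 4 HD libraries, and replicate 2 of the control PV IP had 847 and 377 CPM, against 237 to 451 and 247 to 290 CPM. The same HD library had the highest Rasa4 of its group, 12.5 CPM. In cerebellar total RNA of the vGluT2 line, long transcripts were under-represented in every HD library relative to every control. A length index, the median log2 level of the longest genes (top 25%) minus that of the shortest (bottom 25%) after centring each gene, lay between 0.21 and 0.51 in its 4 controls and between -0.65 and -0.26 in its 4 HD libraries. In the Gad2 line, the index was -0.15, -0.12 and 0.55 in controls and -0.48, -0.12 and 0.55 in HD, which overlap.

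Marker genes were in accord with most labels. Gad2 lay between 250.0 and 494 CPM in control cerebral Gad2 IPs and between 190 and 312 CPM in cerebellar ones, against 12.6 to 31.1 and 13.1 to 32.3 CPM in the cerebral and cerebellar vGluT2 IPs. Pvalb ranged from 450 to 724 CPM in control PV IPs, above the SST IPs (104 to 182 CPM) but overlapping the cerebral Gad2 IPs (300.5 to 634 CPM) and below the cerebellar ones (2858 to 5242 CPM). Sst ranged from 809 to 1503 CPM in control SST IPs, against 67.7 to 137 CPM in PV IPs and an overlapping 654 to 876 CPM in cerebral Gad2 IPs. Slc17a6, which encodes vGluT2, went against a simple reading, because it reached 42.8 to 155 CPM in the cerebral vGluT2 IPs but also 78.7 to 140 CPM in PV and 75.6 to 127 CPM in SST IPs. Control cerebellar vGluT2 IPs read 22.6 to 109 CPM of Slc17a6 (median 24.5) and 0.214 to 63.5 CPM of Sst (median 3.24). The highest value of each lay far above its median. The summed level of 7 Purkinje cell markers was 8886 to 14525 CPM in control cerebellar Gad2 IPs and 344 to 612 CPM in vGluT2 IPs. That of 7 granule cell markers was 702 to 1332 CPM and 5183 to 7600 CPM in the same order, so the cerebellar vGluT2 IP was rich in granule cell RNA and the Gad2 IP in Purkinje cell RNA. The largest markers were Car8 and Zic1, and no gene of these lists was at 0.

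Calcium-responsive members. Rasal1 and Rasa4 encode Ras GAPs that are recruited to membranes when intracellular calcium rises, and in control neurons they differed between the regions in opposite directions. Rasal1 was abundant in the cerebrum and scarce in the cerebellum. Its level ranged from 72.2 to 120 CPM (median 101) in the cerebral vGluT2 IPs, from 33.9 to 61.5 CPM (median 48.1) in PV IPs and from 29.9 to 42.7 CPM (median 31.7) in cerebral Gad2 IPs. The 5 control SST IPs read 47.4, 56.3, 74.7, 68.3 and 47.8 CPM of Rasal1. In the cerebellum, the 5 control vGluT2 IPs read 8.59, 6.22, 8.31, 9.80 and 12.0 CPM, and the 6 Gad2 IPs ranged from 1.64 to 2.33 CPM (median 2.23). No cerebellar library reached the lowest cerebral one, and the 2 cerebellar IP types did not overlap. Among the cerebral types, neighbours in the order vGluT2, SST, PV and Gad2 overlapped.

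Rasa4 was highest in the cerebellum. Control cerebellar Gad2 IPs held 22.0 to 37.8 CPM (median 26.8), and the 5 cerebellar vGluT2 IPs held 10.4, 9.93, 12.0, 11.8 and 10.7 CPM. Levels were 6.86 to 9.35 CPM (median 7.40) in PV IPs and 5.53, 5.34, 6.88, 5.65 and 8.20 CPM in the 5 SST IPs. The cerebral Gad2 and vGluT2 IPs were lowest, with 2.61 to 5.55 CPM (median 3.37) and 2.73 to 5.04 CPM (median 3.42). The cerebellar Gad2 IPs lay above all others and the cerebellar vGluT2 IPs above every cerebral type, while neighbours in the cerebral order PV, SST, Gad2 and vGluT2 overlapped.

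Control IPs of different cells were set against each other in 1 edgeR model. Rasal1 was lower in cerebellar than in cerebral Gad2 neurons, with a log2 fold change (log2FC) of -4.06 (SE 0.17), in 6 of 6 cerebellar libraries. In the vGluT2 line the same regional contrast gave a log2FC of -3.43 (SE 0.18), in 5 of 5 libraries. Rasa4 was higher in the cerebellum, by a log2FC of 2.86 (SE 0.18) for Gad2 and 1.60 (SE 0.17) for vGluT2 neurons, in each case without overlap. Within the cerebellum, vGluT2 exceeded Gad2 neurons in Rasal1 (log2FC 2.14, SE 0.17) and fell short of them in Rasa4 (log2FC -1.33, SE 0.17), with 5 of 5 libraries on that side each time. Within the cerebrum, which the selection did not use, Rasal1 was higher in vGluT2 than in Gad2 neurons (log2FC 1.51, SE 0.15, adjusted p = 6.14e-10 in edgeR's quasi-likelihood test, with the Benjamini-Hochberg method) in 6 of 6 libraries, and Rasa4 did not pass the test (log2FC -0.06, SE 0.17).

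**Figure D1:**
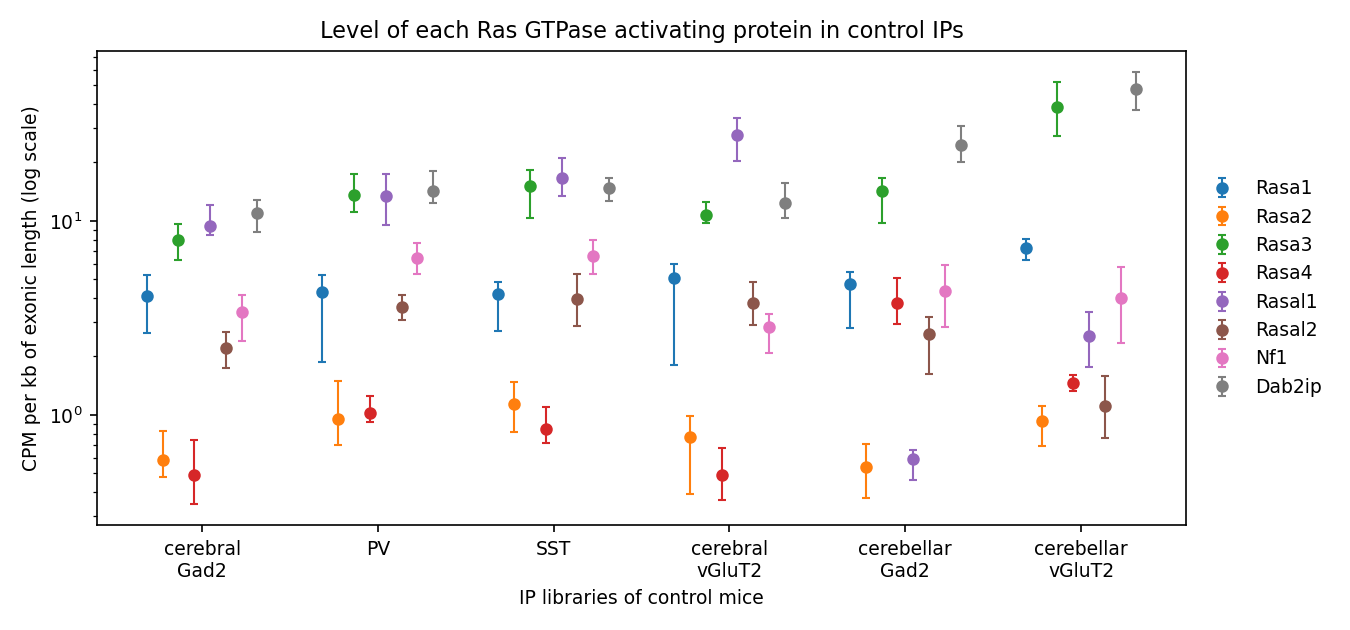
Level of each Ras GAP in control IPs, as CPM per kilobase of exonic length on a log scale, with points at the mean and bars from the lowest to the highest of 5 or 6 libraries. Rasal1 leads in cerebral vGluT2 neurons at 27.7 CPM per kb and is among the lowest in cerebellar Gad2 neurons at 0.589 CPM per kb, and Dab2ip leads in both cerebellar types.

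The GAP1 relatives Rasa2 and Rasa3. Rasa3, which binds inositol phosphates and acts on both Ras and Rap, was highest in the cerebellar vGluT2 IP, at 196 ± 47.5 CPM (SD, n = 5). That group did not overlap the SST, cerebellar Gad2, PV, cerebral vGluT2 and cerebral Gad2 IPs, whose means ran from 76.9 down to 40.7 CPM. Rasa3 was called higher in cerebellar vGluT2 than in cerebellar Gad2 neurons (log2FC 1.47, SE 0.15) and than in cerebral vGluT2 neurons (log2FC 1.84, SE 0.15), with adjusted p of 3.99e-10 and 1.41e-12 in edgeR's quasi-likelihood test and 5 of 5 libraries higher each time. Rasa2 had control means between 8.56 CPM in the cerebellar Gad2 IP and 18.1 CPM in the SST IP, and each neighbour in its order overlapped the next.

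Nf1 and Rasa1. Nf1 encodes neurofibromin, a large Ras GAP that is mutated in neurofibromatosis, and Rasa1 encodes a Ras GAP whose SH2 domains bind activated receptors. Nf1 had its highest means in SST (105 ± 14.7 CPM, SD, n = 5) and PV IPs (101 ± 12.7 CPM, n = 6), which overlapped each other, and its lowest in cerebral vGluT2 IPs (45.2 ± 6.61 CPM, n = 6). Rasa1 stood out in the cerebellar vGluT2 IP at 52.9 ± 5.20 CPM (n = 5), above every library of the other 5 types, whose means ran from 36.9 down to 30.1 CPM and overlapped.

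Rasal2 and Dab2ip complete the family, and Dab2ip is also a scaffold of kinase signalling. Dab2ip reached 398 ± 73.0 CPM (n = 5) in the cerebellar vGluT2 IP and 206 ± 29.0 CPM (n = 6) in the cerebellar Gad2 IP, 2 groups that overlapped neither each other nor any cerebral type. Its cerebral means ran from 124 CPM in SST to 91.9 CPM in Gad2 IPs, with overlap. Rasal2 was lowest in the cerebellar vGluT2 IP at 15.3 ± 4.52 CPM (n = 5), below all libraries of the other types, whose means ran from 54.2 CPM in SST to 30.6 CPM in cerebral Gad2 IPs.

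Counts over the family include Rasal1 and Rasa4 also where cerebellar IPs are compared. The cerebellar vGluT2 and Gad2 IPs differed in 7 of 8 members (5 higher in vGluT2 and 2 lower), beside 58.7% of all genes tested. For cerebral vGluT2 against Gad2, 3 of 8 members were called, each higher in vGluT2, beside 30.1% of genes. PV and SST neurons differed in 0 of 8 members in edgeR's quasi-likelihood test and in 0 of 8 in DESeq2, with 1 at an unadjusted p under 0.05, beside 14.7% of genes. Cerebellar and cerebral Gad2 neurons differed in 4 of 8 (3 higher in the cerebellum), beside 55% of genes, and the vGluT2 neurons of the 2 regions in 7 of 8 (5 higher in the cerebellum), beside 63.7%. Rasa1 in that last contrast (log2FC 0.54, SE 0.24, adjusted p = 0.0448 in edgeR) was not called by DESeq2 or with DESeq2 size factors.

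On a per-length scale, which allows genes to be compared, Dab2ip had the highest control level in the cerebellar IPs, at 47.6 CPM per kb in vGluT2 and 24.7 CPM per kb in Gad2 neurons, where the first overlapped Rasa3 at 38.4 CPM per kb. In the cerebral Gad2 and PV IPs Dab2ip led at 11.0 and 14.2 CPM per kb, overlapping Rasal1 and Rasa3 respectively. Rasal1 led at 27.7 CPM per kb in cerebral vGluT2 IPs, clear of Dab2ip at 12.3, and at 16.7 CPM per kb in SST IPs, where it overlapped Rasa3. At the lower end were Rasa2 and Rasa4 in each cerebral type, Rasal2 (1.12 CPM per kb) and Rasa2 (0.931) in cerebellar vGluT2 IPs, and Rasal1 (0.589) and Rasa2 (0.540) in cerebellar Gad2 IPs.

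Next, the IPs of control mice were set against control total RNA of the same region, which asks whether a member's mRNA is enriched on the ribosomes of the targeted neurons. The cerebral Gad2, PV and vGluT2 contrasts share the same 9 total RNA libraries, which also make up most of the 13 used for SST, and both cerebellar contrasts share 7. Rasal1 was depleted from GABAergic IPs: its level in control total RNA was 53.2 to 120 CPM (median 91.4, 9 libraries) in the cerebrum and 4.77 to 8.59 CPM (median 6.67, 7 libraries) in the cerebellum. All Gad2 IP libraries of either region lay below these ranges, and each PV and SST library lay below the cerebral median. Its log2FC was -1.43 (SE 0.13) in cerebral Gad2, -0.79 (SE 0.14) in PV, and -0.40 (SE 0.14) in SST IPs, with adjusted p of 2.64e-07, 0.000159 and 0.0191 in edgeR's quasi-likelihood test, and -1.72 (SE 0.18) in cerebellar Gad2 IPs. In the cerebral vGluT2 IP Rasal1 was not called, at 0.10 (SE 0.14), and in the cerebellar one it lay at 0.31 (SE 0.18). The SST call was lost in the 3 mice that gave both libraries, with the mouse as a block (log2FC -0.45, adjusted p = 0.0809 in edgeR) or without it (-0.45, adjusted p = 0.0831), and with total RNA of the SST line alone (-0.26, adjusted p = 0.203 in edgeR).

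Rasa4 was enriched in the PV IP (log2FC 0.43, SE 0.13, adjusted p = 0.00756 in edgeR's quasi-likelihood test) and stood at 0.85 (SE 0.18) in the cerebellar Gad2 IP. Control total RNA held 4.17 to 8.41 CPM of Rasa4 in the cerebrum and 9.67 to 22.2 CPM in the cerebellum. The lowest cerebellar Gad2 IP, at 22.0 CPM, only just overlapped the highest total RNA library. Rasa4 was lower than total RNA in cerebral Gad2 (-0.76, SE 0.18) and cerebral vGluT2 IPs (-0.79, SE 0.17), with adjusted p of 0.00157 and 0.000886 in edgeR's quasi-likelihood test, and lay at -0.58 (SE 0.18) in cerebellar vGluT2 IPs. The call in cerebral Gad2 IPs was lost in the 3 mice that gave both libraries, with the mouse as a block (-0.53, adjusted p = 0.203 in edgeR) or without it (-0.53, adjusted p = 0.304). With total RNA of the same line alone, adjusted p rose to 0.0526 for cerebral Gad2 (edgeR).

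Across the family, IP and total RNA differed in 5 of 8 members for cerebral Gad2 (1 higher and 4 lower, beside 57.4% of genes), 6 of 8 for PV (5 and 1, beside 65.6%), 5 of 8 for cerebral vGluT2 (2 and 3, beside 59.5%) and 5 of 8 for SST (4 and 1, beside 61.9%). In the cerebellum the counts were 5 of 8 for Gad2 (1 higher and 4 lower, beside 57.1%) and 3 of 8 for vGluT2 (1 and 2, beside 56.7%). Apart from the lower share in cerebellar vGluT2 IPs, these were near those of all genes. Rasa1 was higher in each cerebral IP, with log2FC between 1.12 and 1.39. Nf1, Rasa2 and Rasal2 were each higher in PV and SST IPs, with log2FC between 1.18 and 1.53. Rasal2 was also higher in cerebral vGluT2 IPs (1.10) and lower in cerebellar vGluT2 IPs (-1.04), and Rasa2 was lower in cerebellar Gad2 IPs (-1.09). Dab2ip was lower in cerebral Gad2 (-0.56), cerebral vGluT2 (-0.41) and cerebellar Gad2 IPs (-0.52) and higher in cerebellar vGluT2 IPs (0.35). Rasa3 was lower in cerebral Gad2 (-0.94), cerebellar Gad2 (-0.98) and cerebral vGluT2 IPs (-0.52). The 9 control libraries of cerebral total RNA held 1.94 to 33.8 CPM of Rasa1 and 1.15 to 19.9 CPM of Rasa2. They held 24.9 to 90.6 CPM of Nf1 and 8.90 to 51.5 CPM of Rasal2. Each range overlapped the cerebral IPs in which that member was called higher. The length index ran from -0.83 to 0.81 over these libraries, and its part in the contrasts was not tested.

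In each type, 3 mice gave both an IP and a total RNA library, and fits of these mice alone were made with the mouse as a block and, chosen after seeing the data, without it. The genes called were 8492 with all libraries, 2494 in these mice with the block and 2069 without it in cerebral Gad2 IPs, and 8214, 4558 and 4683 in cerebellar Gad2 IPs, so fewer were called in these mice either way. Calls absent from both fits, with adjusted p in edgeR with and without the block, were those of Rasa1 (0.191 and 0.665) and Dab2ip (0.203 and 0.263) in cerebral Gad2 IPs, of Rasa2 in cerebellar Gad2 IPs (0.308 and 0.303) and of Dab2ip in cerebellar vGluT2 IPs (0.117 and 0.1703). Calls gained were those of Rasa2 in cerebral vGluT2 IPs (0.0155 and 0.0247) and Rasa1 in cerebellar vGluT2 IPs (0.0155 and 0.0418). Called with the block but not without it were Rasa3 in cerebral Gad2 IPs (0.0315 and 0.0628), Rasa1 (0.0218 and 0.203) and Rasa2 (0.0208 and 0.0790) in PV IPs, and Rasa2 (0.0165 and 0.0853) and Rasa3 (0.0472 and 0.0894) in cerebellar vGluT2 IPs, all in edgeR.

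Genes whose mean log2 level ran most like Rasal1 over the 12 IP groups (6 IP types by 2 genotypes) were C1ql4, Cbln2, Dusp22, Tle6 and Ldb2, with Pearson correlations between 0.978 and 0.983. The groups share tissue, lines and in part mice, they include the cerebellar IPs of the selection, and 14648 genes were ranked. Those most like Rasa4 were Pitpnm1, Tbcel, Ppm1h, Wdr33 and Itga3, between 0.955 and 0.972.

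Turning to HD, the cerebral neurons were asked which members respond to mutant Htt in each cell type. Rasal1 read 27.3 to 48.8 CPM (median 41.7) in HD cerebral Gad2 IPs and 88.2 to 145 CPM (median 102) in HD cerebral vGluT2 IPs. The 5 HD PV IPs read 37.7, 56.5, 47.0, 50.04 and 36.7 CPM, the last being the re-sequenced library, and the 4 HD SST IPs read 51.1, 42.0, 68.1 and 62.0 CPM. Each of these groups overlapped its controls. For Rasa4, HD levels were 3.17 to 5.02 CPM (median 4.45) in cerebral Gad2 and 2.93 to 10.1 CPM (median 4.33) in cerebral vGluT2 IPs, which also overlapped the controls. HD PV IPs read 7.66, 8.66, 12.5, 7.95 and 5.95 CPM of Rasa4 (log2FC -0.05 without the library at 12.5 CPM), and HD SST IPs 5.77, 5.26, 5.47 and 7.24 CPM.

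In edgeR's quasi-likelihood test, 0 of 8 members were called in the cerebral Gad2 IPs, beside 0.0279% of 14342 genes (4 genes, 1313 at an unadjusted p under 0.05). DESeq2 called 75 genes there and 0 members. The only member at an unadjusted p under 0.05 was Dab2ip, at a log2FC of 0.29 (SE 0.11, adjusted p = 0.536 in edgeR), above the control mean in 5 of 6 HD libraries. In PV IPs 0 of 8 members were called by edgeR or DESeq2, beside 0.034% of 14713 genes (5 genes in edgeR, 630 unadjusted, 42 in DESeq2), and 0 members passed unadjusted. For cerebral vGluT2 IPs the count was 0 of 8 by both tools, beside 0.00697% of 14354 genes (1 gene in edgeR, 1045 unadjusted, 25 in DESeq2), again with 0 members unadjusted. SST IPs likewise gave 0 of 8 by both tools, beside 0% of 14689 genes (0 in edgeR, 207 unadjusted, 2 in DESeq2). Log2FC of the 8 members lay between -0.49 and 0.29 in cerebral Gad2, -0.26 and 0.14 in PV, -0.17 and 0.09 in SST and -0.35 and 0.51 in cerebral vGluT2 IPs.

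The largest of these, Rasa4 in cerebral vGluT2 IPs (log2FC 0.51, SE 0.29, adjusted p = 0.687 in edgeR, above the control mean in 4 of 6 HD libraries), rested on the re-sequenced HD library, whose 10.1 CPM was the highest. Without it the log2FC was 0.21 (SE 0.21).

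Cerebral total RNA, with 9 HD and 9 control libraries of 3 lines, gave 0 of 8 members in edgeR's quasi-likelihood test and 0 of 8 in DESeq2, beside 0.141% of 14871 genes (21 genes in edgeR, 984 unadjusted, 119 in DESeq2), and 0 members passed unadjusted. Rasal1 ranged from 42.6 to 114 CPM (median 86.4) in HD against 53.2 to 120 CPM (median 91.4) in controls, and Rasa4 from 3.14 to 7.97 against 4.17 to 8.41 CPM. Both overlapped widely, with log2FC of -0.10 (SE 0.14) and -0.18 (SE 0.15). The HD effects were next compared between pairs of the 4 cerebral IP types in models with an interaction term. In edgeR's quasi-likelihood test each of the 6 pairs gave 0 of 8 members, and 0 members at an unadjusted p under 0.05. Of 14678 genes, 0% were called for cerebral Gad2 less PV (364 unadjusted, 1 in DESeq2), 0% for Gad2 less vGluT2 (348 unadjusted, 3 in DESeq2), 0% for Gad2 less SST (364 unadjusted, 1 in DESeq2), 0% for PV less vGluT2 (256 unadjusted, 3 in DESeq2), 0% for PV less SST (53 unadjusted, 1 in DESeq2) and 0% for vGluT2 less SST (253 unadjusted, 5 in DESeq2).

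**Figure D2:**
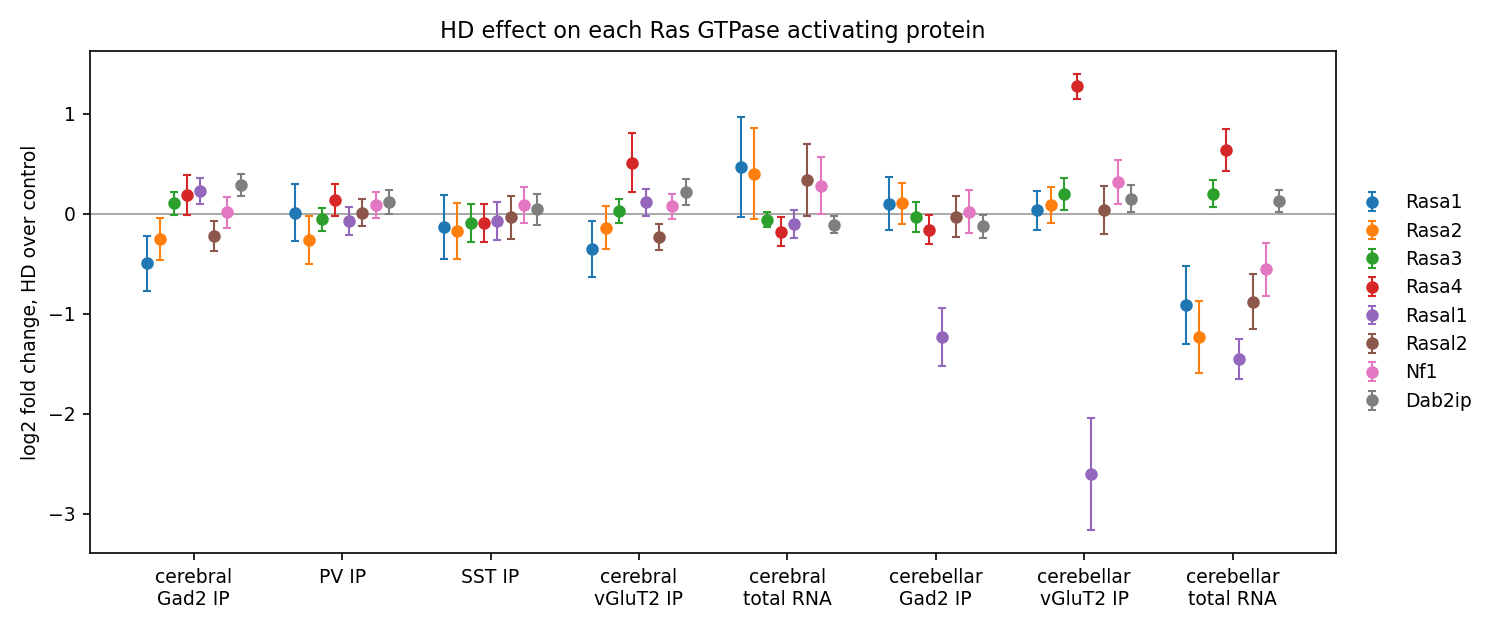
HD effect on each Ras GAP, as log2FC of HD over control (points) with its standard error (bars), in 6 IP types and in total RNA of both regions. The cerebral points lie between -0.49 and 0.51, and Rasal1 lies at -1.23 in cerebellar Gad2 IPs, -2.60 in cerebellar vGluT2 IPs and -1.45 in cerebellar total RNA.

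The cerebellar IPs on which the family was selected are described next. Rasal1 was lower in HD granule-rich vGluT2 IPs, at 1.53, 0.936, 1.66, 1.86, 2.82 and 0 CPM, against 8.59, 6.22, 8.31, 9.80 and 12.0 CPM in controls. These levels correspond to 48, 41, 66, 70, 83 and 0 counts in HD. Every HD library lay below every control. The log2FC was -2.60 (SE 0.56), and it stayed between -2.89 and -2.33 in refits that each lacked 1 library, the library with 0 counts among them.

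Rasa4 moved the other way in the same libraries. Its HD levels were 26.9, 23.1, 21.3, 32.1, 27.4 and 25.3 CPM, against 10.4, 9.93, 12.0, 11.8 and 10.7 CPM in controls, so that all 6 HD libraries lay above all 5 controls. The log2FC was 1.28 (SE 0.13; 1.21 to 1.34 with each library left out). HD levels in this IP were close to those of control cerebellar Gad2 IPs (22.0 to 37.8 CPM). The other 6 members had log2FC between 0.03 and 0.32, and their groups overlapped. Members called were 2 of 8, beside 2.11% of 13487 genes, and nothing is read from that count because the contrast chose the family. Summed granule cell markers were 3729 to 5877 CPM in HD against 5183 to 7600 CPM in controls (7 genes, 1 called lower, most abundant Zic1, none at 0), and the part of this difference in the levels of Rasal1 and Rasa4 was not tested. Purkinje cell markers in the same IPs summed to 209 to 592 CPM in HD and 344 to 612 CPM in controls (0 of 7 called, most abundant Car8, none at 0). Of the line drivers, Sst read 0.0530 to 17.8 CPM in HD (median 0.567) against 0.214 to 63.5 CPM (median 3.24). Slc17a6 read 8.16 to 70.4 CPM (median 18.8) against 22.6 to 109 CPM (median 24.5). Gad2 and Pvalb had medians of 14.8 against 19.8 CPM and 101 against 128 CPM. Each overlapped between genotypes, and their part in the levels of Rasal1 and Rasa4 was not tested.

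In cerebellar Gad2 IPs Rasal1 ranged from 0.411 to 1.42 CPM in HD (median 0.954, 6 libraries), against 1.64 to 2.33 CPM in controls (median 2.23). The 2 groups did not overlap. Its log2FC was -1.23 (SE 0.29), and -1.41 to -1.07 with each library left out, the re-sequenced library with the lowest level among them. Rasa4 was similar in both genotypes, at 22.4 to 31.8 CPM in HD (median 25.5) and 22.0 to 37.8 CPM in controls (median 26.8), with a log2FC of -0.16 (SE 0.14). The other 6 members lay between -0.12 and 0.10. Members called were 0 of 8 in edgeR and 1 of 8 in DESeq2, beside 0.0142% of 14098 genes (2 genes in edgeR, 324 unadjusted, 22 in DESeq2), from which again nothing is read. Of the 7 Purkinje cell markers, 0 were called, with sums of 8704 to 13001 CPM in HD and 8886 to 14525 CPM in controls.

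**Figure D3:**
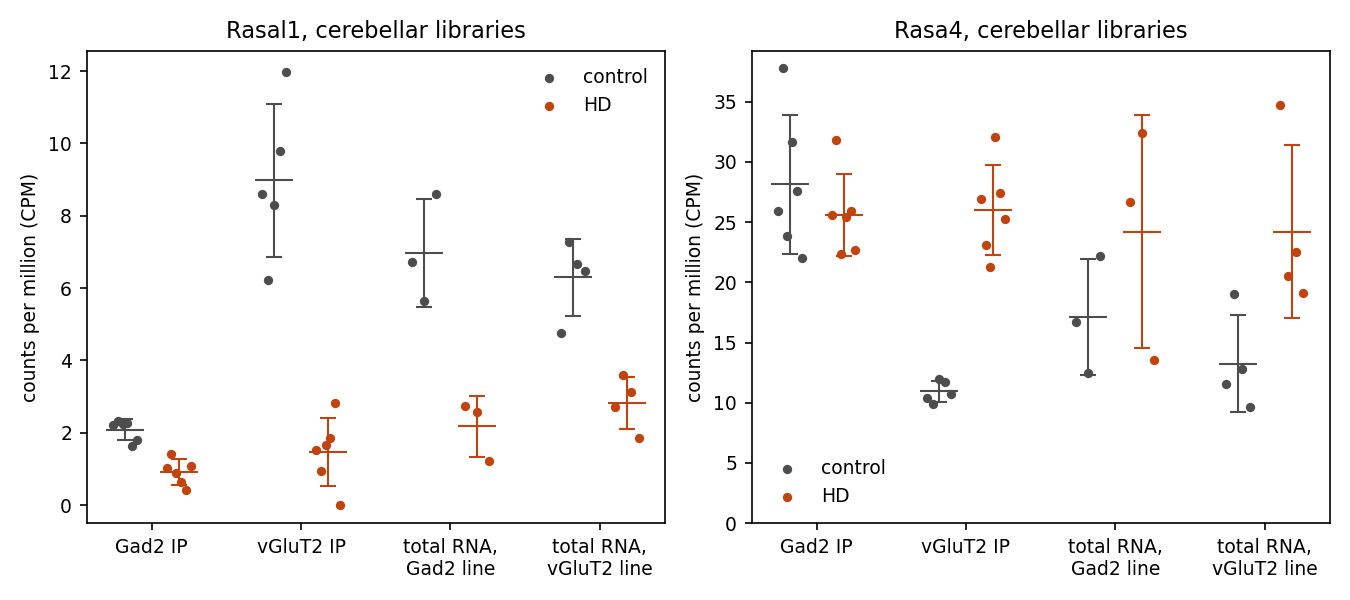
Rasal1 and Rasa4 in CPM in every cerebellar library of control (grey) and HD mice (orange), with dashes at the mean and bars of 1 SD to either side. Rasal1 lies lower in HD without overlap in all 4 kinds of library, and Rasa4 lies higher in HD without overlap in the vGluT2 IP and in total RNA of the vGluT2 line. In total RNA of that line, 7 of 8 members do not overlap between genotypes.

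Total RNA libraries of the cerebellum did not enter the selection, but 13 of their 14 mice also gave the cerebellar IPs on which it rested, so the tests of Rasal1 and Rasa4 in them, and those of the region difference, are not independent of it. Rasal1 read 2.75, 2.57 and 1.21 CPM in HD against 6.72, 5.64 and 8.59 CPM in controls of the Gad2 line. In the vGluT2 line it read 2.71, 3.58, 3.13 and 1.86 CPM in HD against 4.77, 7.26, 6.67 and 6.47 CPM. All 7 HD libraries lay below all 7 controls. Rasal1 fell with a log2FC of -1.45 (SE 0.20, adjusted p = 0.00311 in edgeR's quasi-likelihood test), in 7 of 7 HD libraries. Fewer cells of a type and less RNA per cell cannot be told apart in such bulk samples.

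Rasa4 was more variable in total RNA. The Gad2 line read 26.7, 32.4 and 13.5 CPM in HD against 16.7, 12.5 and 22.2 CPM in controls, and these overlapped. In the vGluT2 line 34.7, 20.5, 22.5 and 19.1 CPM in HD lay just above 11.6, 19.0, 12.8 and 9.67 CPM in controls. Rasa4 rose with a log2FC of 0.64 (SE 0.21, adjusted p = 0.0434 in edgeR), above its line's control mean in 2 of 3 and 4 of 4 HD libraries. The call held without replicates 1 or 3 of the Gad2 line controls or replicate 3 of its HD libraries, and was lost when any of the other 11 libraries was left out (log2FC 0.50 to 0.75 over all 14).

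Rasa2 and Rasal2 fell in the same comparison. Rasa2 read 5.95, 5.69, 3.47 and 6.10 CPM in HD against 22.4, 22.1, 15.0 and 21.3 CPM in controls of the vGluT2 line, without overlap. In the Gad2 line it read 11.3, 7.09 and 18.8 CPM in HD against 10.8, 18.7 and 11.4 CPM, which overlapped. Rasal2 read 16.7, 10.5, 11.7 and 13.1 against 33.0, 29.2, 28.4 and 35.9 CPM in the vGluT2 line, again without overlap, and 16.8, 15.1 and 32.2 against 20.97, 35.5 and 16.7 CPM in the Gad2 line, with overlap. Their log2FC were -1.23 (SE 0.36) and -0.88 (SE 0.28), with adjusted p of 0.0340 and 0.0384 in edgeR's quasi-likelihood test, below the line's control mean in 2 of 3 and 4 of 4 HD libraries for each. Leaving out a library ended the call of Rasa2 in 10 and that of Rasal2 in 11 of 14 refits. Rasa1 (-0.91, SE 0.39), Nf1 (-0.56, SE 0.26), Rasa3 (0.20, SE 0.14) and Dab2ip (0.13, SE 0.11) were not called, with adjusted p of 0.0890, 0.114, 0.257 and 0.349 in edgeR. In total RNA of the vGluT2 line, 7 of 8 members did not overlap between genotypes, all except Rasa3. Rasa1 and Nf1 lay lower in HD there, and Dab2ip lay higher. The share of all genes without overlap is not given, but 51.7% of genes were called in that line alone.

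In all, 4 of 8 members were called in cerebellar total RNA (1 higher and 3 lower), beside 24.5% of 14477 genes (3544 genes in edgeR, 6423 unadjusted, 4977 in DESeq2). With a library left out, the genes called ranged from 96 to 7408 and the members from 1 to 6. The length index moved with genotype in the vGluT2 line, and as a covariate it left 0.608% of genes (88) and 1 of 8 members called. Rasal1 was that member, at -1.87 (SE 0.22, adjusted p = 0.000559 in edgeR). The others shrank to 0.27 for Rasa4, -0.29 for Rasa2 and -0.12 for Rasal2, with adjusted p of 0.675, 0.507 and 0.726 in edgeR, and Rasa1 (0.18), Nf1 (0.16) and Dab2ip (-0.02) changed sign without a call. The covariate was chosen after seeing the data, and the index was itself computed from the libraries compared.

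Fitted alone, the vGluT2 line gave 6 of 8 members beside 51.7% of genes, and the Gad2 line gave 0 of 8 beside 0% of 14226 genes (0 in edgeR, 316 unadjusted, DESeq2 not run). Rasal1 was of like size in both, at -1.29 (SE 0.23, adjusted p = 0.00141 in edgeR, 4 of 4 HD libraries lower) in the vGluT2 line and -1.69 (SE 0.34, adjusted p = 0.9999 in edgeR, 3 of 3 lower) in the Gad2 line. Rasa4 was at 0.75 (SE 0.25, adjusted p = 0.0275 in edgeR, 4 of 4 higher) and 0.49 (SE 0.33). Rasa2, Rasa1, Rasal2 and Nf1 were at -2.06, -1.56, -1.41 and -0.97 in the vGluT2 line, against -0.13, -0.04, -0.18 and -0.02 in the Gad2 line. The difference between lines was not tested.

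Some markers of other cells moved with genotype in this tissue, and not every list is described. Of 7 Purkinje cell markers, 4 were called lower, and their sum was 1857 to 2357 CPM in HD against 2959 to 3216 CPM in controls of the vGluT2 line and 2440 to 2475 against 2852 to 3058 CPM in the Gad2 line, with Car8 most abundant. Pvalb, a line driver that was not called, was 1143 to 1704 CPM in HD against 798 to 1103 CPM in the vGluT2 line and 676 to 1371 against 774 to 1423 CPM in the Gad2 line. Gad2, another line driver, was 41.2 to 49.1 CPM in HD against 101 to 149 CPM in the vGluT2 line, without overlap. In the Gad2 line it was 48.8 to 85.4 against 65.4 to 98.5 CPM, with overlap. Cerebellar interneuron markers were lower in 4 of 6 and GABAergic ones in 2 of 3. Summed granule cell markers (0 of 7 called) were 2056 to 3107 CPM in HD against 2722 to 3616 CPM in the vGluT2 line and 2125 to 3191 against 2413 to 3705 CPM in the Gad2 line. Of the 2 glutamatergic markers, Slc17a7 was called higher. Slc17a6 was not called, with medians of 6.14 CPM in HD against 10.1 CPM in the vGluT2 line and 6.01 against 11.4 CPM in the Gad2 line. Its ranges were 2.12 to 10.8 against 6.46 to 61.3 CPM and 4.38 to 14.7 against 4.04 to 18.8 CPM, in the same order. The glutamatergic sum was 1240 to 1394 against 494 to 749 CPM in the vGluT2 line and 612 to 1106 against 758 to 909 CPM in the Gad2 line. Microglial markers were higher in 2 of 6, with sums of 108 to 123 against 66.9 to 75.1 CPM in the vGluT2 line and Csf1r most abundant. This sum is given only for the vGluT2 line, where the length index moved with genotype. Astrocyte markers were lower in 2 of 6, oligodendrocyte markers higher in 1 and lower in 2 of 6, and endothelial markers called in 0 of 5. No marker of these lists was at 0. The part of these cells and of transcript length in the results for the Ras GAPs was not tested.

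Whether the HD effect differed between the regions was tested in 1 model over total RNA of both, with 16 HD and 16 control libraries. Rasal1 was the only member called by edgeR, with a cerebellar less cerebral log2FC of -1.36 (SE 0.23, adjusted p = 0.00283 in its quasi-likelihood test), 7 of 7 cerebellar HD libraries being lower. Leaving out any library kept it between -1.44 and -1.24 with an adjusted p of at most 0.0150. With the length index as a covariate it was -1.74 (adjusted p = 1.48e-07 in edgeR). Rasa4 had 0.80 (SE 0.25, adjusted p = 0.0703 in edgeR) and was 1 of 3 members called by DESeq2. The count was 1 of 8 members beside 0.653% of 14860 genes (97 genes in edgeR, 5847 unadjusted, 2438 in DESeq2), and 0.747% with the length index. With a library left out, the genes called ranged from 33 to 5529 and the members from 1 to 5. This model does not take into account that 6 mice gave total RNA of both regions. Fits with the mouse, chosen after seeing the data, took the vGluT2 line, where 3 control and 2 HD mice gave both and where the length index moved with genotype. With the mouse as a block, Rasal1 was at -1.27 (SE 0.29, adjusted p = 0.0261 in edgeR), and Rasa4 (0.82, adjusted p = 0.0476), Nf1 (-1.48, adjusted p = 0.0203), Rasa2 (-2.15, adjusted p = 0.0282) and Rasal2 (-2.13, adjusted p = 0.0203) were called too, which makes 5 of 8 beside 27.3% of genes (4067) in edgeR. The same mice without the block gave 2 of 8 beside 9.29% (1383), with Rasal1 at -1.20 (adjusted p = 0.0589 in edgeR). With the block and the length index, 0 of 8 members and 0% of genes were called, with Rasal1 at -1.40 (SE 0.64). Whether the HD effect differed between cerebellar IP types, or between cerebellar and cerebral IPs, was not tested.

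The wider Ras pathway was followed in 7 lists with 64 genes: Ras GTPases, Rap GTPases and their GAPs, exchange factors, receptor adaptors, RAF-MEK-ERK kinases and scaffolds, feedback inhibitors, and Ras GAPs outside the 8 members. In HD, edgeR called 0 of them in each cerebral IP type, in cerebral total RNA and in cerebellar Gad2 IPs. Cerebellar vGluT2 IPs had 4 of 62 past the threshold, 2 higher and 2 lower, beside 2.11% of all genes, and nothing is read from that count. Dusp5, a phosphatase that inactivates nuclear ERK, read 54.8 to 124 CPM in HD (median 73.8) against 141 to 207 CPM in controls (median 158), a log2FC of -1.11 (SE 0.20). Rasd2, a striatum-enriched small GTPase, read 17.8 to 25.8 against 36.5 to 58.1 CPM (log2FC -1.07, SE 0.15). Both were lower without overlap. Sipa1l2, a Rap GAP, read 55.8 to 89.1 against 32.6 to 65.2 CPM (log2FC 0.71, SE 0.17), and Rapgef1, an exchange factor for Rap, read 130 to 164 against 93.0 to 114 CPM (log2FC 0.54, SE 0.10), the first with overlap and the second without.

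In cerebellar total RNA, 15 of 64 pathway genes were called (8 higher and 7 lower), a share near that of all genes. The 6 with the largest log2FC all fell. Among the kinases, Rps6ka3 ranged from 8.53 to 54.0 CPM in HD (median 15.3) against 24.4 to 60.2 CPM (median 53.1), and Braf from 21.03 to 102 CPM (median 29.8) against 41.0 to 111 CPM (median 87.2). The exchange factors Rasgrp3 and Rasgrp1 had medians of 5.79 against 12.6 CPM and 28.4 against 44.8 CPM. Dusp5 and the adaptor Shc4 had medians of 49.5 against 77.5 CPM and 9.56 against 16.6 CPM. All 6 overlapped between genotypes. Their log2FC were -1.19 (Rps6ka3), -1.18 (Braf), -0.99 (Rasgrp3), -0.72 (Dusp5), -0.64 (Shc4) and -0.61 (Rasgrp1), with adjusted p between 0.0280 and 0.0480 in edgeR's quasi-likelihood test. With the length index as a covariate 1 of 64 was called, Dusp5 (-1.03, adjusted p = 0.0148 in edgeR), beside 0.608% of all genes, and the other 5 shrank to between -0.44 and -0.08 without a call. In the test of the region difference, 2 of 64 were called in edgeR beside 0.653% of all genes, Sipa1l2 (0.67, SE 0.13, adjusted p = 0.0102) and Spred3 (0.54, SE 0.12, adjusted p = 0.0310), an inhibitor of RAF activation.

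The pathway genes were also compared between control neurons. Cerebellar less cerebral Gad2 IPs gave 11 higher and 36 lower of 64 in edgeR, beside 55% of all genes called (3588 higher and 4432 lower). Rasgrf2 (log2FC -4.48), Rasd2 (-4.28) and Shc4 (4.09) were at the extremes. For the vGluT2 neurons of the 2 regions 19 were higher and 31 lower, beside 63.7% of all genes (4930 higher and 4347 lower). Rasgrp1 (-5.09) and Rps6ka1 (4.80) were at the extremes there. Within the cerebellum, vGluT2 neurons had 24 genes higher and 19 lower than Gad2 neurons, beside 58.7% (4787 higher and 3761 lower). The largest were Shc4 (-3.51), Rasgrp1 (-2.87) and Rps6ka1 (2.85). Within the cerebrum 13 were higher and 13 lower in vGluT2 neurons, beside 30.1% (1957 higher and 2434 lower), led by Rasgrp2 (-3.14) and Rasd2 (-2.05). PV and SST neurons differed in 7 (1 higher in PV and 6 lower), beside 14.7% (1238 higher and 909 lower), led by Rps6ka1 (0.59). Against total RNA, Rras was lower in every IP type, with log2FC from -2.72 in cerebellar Gad2 to -2.01 in SST IPs, while Braf was higher in PV (1.59) and SST IPs (1.81).

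In the GRCm38.p6 build, Rasa4 (ENSMUSG00000004952.13) lies on chromosome 5 from 136083916 to 136111860 and Rasal1 (ENSMUSG00000029602.11) on the same chromosome from 120648812 to 120679597, both on the plus strand. They are 101 and 85.7 Mb from Htt (34761740 to 34912534), the locus that differs between the genotypes. The others lie on chromosomes 11 (Nf1, 79339693 to 79581612), 13 (Rasa1, 85214780 to 85289130), 9 (Rasa2, 96539300 to 96631617), 8 (Rasa3, 13566948 to 13677603), 1 (Rasal2, 157135182 to 157412595) and 2 (Dab2ip, 35558266 to 35730994). Rasal1 and Rasa3 overlap no annotated gene. Rasa4 shares 182 exonic bases with the antisense gene Gm15701, which had 0 CPM on average, Dab2ip shares 347 with Gm13446 (5.62 CPM), Rasal2 shares 244 with 2810025M15Rik (14.3 CPM), and Rasa1 shares 12 with Ccnh (40.1 CPM), all on the opposite strand. Rasa4 also shares 82 exonic bases with Mir7035 on its own strand, which had 0 CPM. The library kit marks strand, and whether the counting used it is not stated there.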

How the data were processed

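The authors deposited gene-level estimated counts per library, made with STAR and Salmon on GRCm38.p6 from TruSeq stranded mRNA libraries per the labels. Of the values, 8.57% were not whole, and all were rounded to whole counts. The members and gene lists were chosen with earlier results of these data known. Spike-in controls (92) were left out of library sizes, and 55141 of the 55401 genes matched the annotation.

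Protein-coding genes with a mean count above 10 in the libraries compared were tested with edgeR 4.0.16 (TMM scaling, quasi-likelihood F test, Benjamini-Hochberg adjustment, adjusted p of 0.05 or less) in R 4.3.3. The SE was derived from that test, as the absolute log2FC divided by the square root of F. TMM factors were computed within the libraries of each fit, whereas CPM used 1 set of factors over all 106 libraries. HD was compared with control within each IP type, and in total RNA of each region with the line in the model. Control IPs were compared with control total RNA and with each other, and differences of HD effects used interaction terms. Alternatives were DESeq2 1.42.0 as the test or for size factors, no filter, all gene types, a replicate block, the mouse as a block, single lines, SST total RNA added, both genotypes, no re-sequenced library, a length index and each library left out. The fits were tested on simulated counts, where DESeq2 exceeded its nominal share of false calls. Tables and figures used Python 3.11.15, pandas 2.3.3 and matplotlib 3.10.9.

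All 8 members are named. Of the marker lists, the line driver and the most abundant gene are named, and for likeness the 5 genes with the highest correlation. From the pathway lists, the genes named are those called with the largest absolute log2FC, at most 6 per comparison. The mouse pairs the IP with total RNA, and the IPs of both regions, since the labels give the same animal: median correlations of deviations from the group means were 0.05 to 0.48 for IP with total RNA (3 pairs per type), and 0.03 and 0.12 for the IPs of both regions in the Gad2 and vGluT2 lines. For total RNA of both regions the median was 0.40 (-0.26 to 0.55, 5 mice of the vGluT2 line), and the mouse was a block only in fits added later. At the depths given in the report, a gene at 1 CPM has about 36 counts in the median library.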

Additional observations from a re-analysis of the deposited data

Results flagged for a closer look

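Samples far from the others of their group were looked for in 120 groups of member values, and 16 were found. The rule marks about 1 in 20 groups by chance. For Rasa1 the lowest library was apart in 4 control groups and an HD group. Rasa1 read 20.5 CPM in control cerebellar Gad2 IP replicate 4 (others 34.1 to 39.7), 13.7 CPM in control PV replicate 6 (31.8 to 38.4), 19.8 CPM in control SST replicate 3 (31.5 to 35.3) and 13.2 CPM in control cerebral vGluT2 replicate 1 (38.4 to 44.0). HD cerebellar Gad2 IP replicate 4 read 11.9 CPM (others 35.2 to 47.0).

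Rasa2 was highest in control cerebral Gad2 IP replicate 3 at 13.0 CPM (others 7.62 to 9.07) and in control PV replicate 1 at 23.6 CPM (11.1 to 15.4). It was lowest in replicate 3 of cerebellar total RNA of the vGluT2 line in both genotypes, at 15.0 CPM in the control (others 21.3 to 22.4) and 3.47 CPM in HD (5.69 to 6.10). Rasa4 reached 31.8 CPM in HD cerebellar Gad2 IP replicate 4 (others 22.4 to 25.9). Rasal1 reached 42.7 CPM in control cerebral Gad2 IP replicate 6 (29.9 to 33.2) and 145 CPM in HD cerebral vGluT2 IP replicate 1 (88.2 to 107). Rasal2 reached 34.5 CPM in HD cerebral Gad2 IP replicate 2 (22.5 to 27.0) and was low at 36.6 CPM in HD SST replicate 4 (57.01 to 58.8). Dab2ip reached 151 CPM in control PV replicate 6 (103 to 119) and 576 CPM in HD cerebellar vGluT2 IP replicate 4 (372 to 437).

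A difference between groups was tested for Rasal1 in total RNA, where the HD effect in the cerebellum less that in the cerebrum was -1.36. Other opposite directions between kinds of total RNA were counted as HD libraries above or below the control mean. Those between the regions of the vGluT2 line were tested only in the 5 mice that gave both, as the report gives, and the rest were not tested. No chance rate and no share of all genes is given for these directions, so nothing is read from them. Rasa3 was above in 3 of 3 SST line libraries and below in 3 of 3 PV line libraries, and above in 4 of 4 cerebellar vGluT2 line libraries. Rasa4 and Dab2ip were each above in 3 SST line and 4 cerebellar vGluT2 line libraries and below in 3 PV line libraries. Rasa4 was also below in 3 cerebral vGluT2 line libraries. Rasal2 and Nf1 were above in 3 cerebral vGluT2 line libraries and below in 4 cerebellar vGluT2 line libraries.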

How the results depend on the processing

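The differences of Rasal1 and Rasa4 between regions and between cerebellar cell types kept their direction under every setting tried. The HD difference of Rasal1 in cerebellar total RNA kept its direction and its call, except under the replicate block and in the Gad2 line alone. Over all settings other than a left-out library, 785 member values stayed the same, 26 became stronger, 41 weaker and 44 reversed. With a library left out, 4505 stayed the same, 26 became stronger, 61 weaker and 200 reversed. The same means the same direction and call, or, for HD in cerebellar IPs, where no call is read, a change smaller than the SD between libraries. Counts of genes or members stayed within 1.5 times in 163 cases and moved further in 61 for settings, and in 1088 and 110 for left-out libraries. The length index and the removal of libraries from the IP, cell type and interaction contrasts were chosen after seeing the data. On simulated data, DESeq2 called a larger share of unchanged genes than its nominal rate, so its higher counts carry that limit. Where a value below moved, the cause was not tested. Rasal1 had few counts in HD cerebellar IPs.

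DESeq2 in place of edgeR moved the HD genes called from 4 to 75 in cerebral Gad2, 5 to 42 in PV, 0 to 2 in SST, 1 to 25 in cerebral vGluT2, 2 to 22 in cerebellar Gad2 (members 0 to 1) and 285 to 663 in cerebellar vGluT2 IPs, and 21 to 119 in cerebral total RNA. For differences of the HD effect it gave 1 (Gad2 less PV), 3 (Gad2 less vGluT2), 1 (Gad2 less SST), 3 (PV less vGluT2), 1 (PV less SST) and 5 (vGluT2 less SST) genes instead of 0, and 2438 instead of 97 for the regions (members 1 to 3). For PV less SST, Nf1 went from -0.0017 to 0.012 and Rasal1 from -0.0048 to 0.013. DESeq2 size factors gave 0 HD genes in the cerebral vGluT2 IP and 1 in the cerebellar Gad2 IP, and 5 instead of 3 members for cerebellar vGluT2 IP against total RNA. Without the filter these 2 HD counts were 0 and 1, and with all gene types 0 and 0.

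The replicate number as a block joins different mice. Same-numbered controls and HD mice deviated together in every pair only in cerebral Gad2 total RNA (correlations 0.57 to 0.97, 3 pairs). With this block the HD genes called went from 4 to 9 (cerebral Gad2 IP), 5 to 0 (PV), 1 to 0 (cerebral vGluT2), 0 to 1 (SST), 2 to 0 (cerebellar Gad2), 285 to 108 (cerebellar vGluT2) and 3544 to 9 (cerebellar total RNA, members 4 to 0, Rasal1 -1.48 with adjusted p = 0.0812 in edgeR). Under the block PV values turned for Nf1 (0.091 to -0.060), Rasa1 (0.012 to -0.35), Rasal1 (-0.074 to 0.048) and Rasal2 (0.011 to -0.18), as did Rasa3 in cerebral vGluT2 (0.024 to -0.044) Rasa4 (-0.091 to 0.034) and Rasal2 (-0.036 to 0.099) in SST IPs, and Rasa1 in cerebellar Gad2 IPs (0.099 to -0.051).

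For IP against total RNA, the fit with the mouse as a block was limited to the 3 mice per type that gave both. In it the genes called were 2494 instead of 8492 (members 5 to 2) in cerebral Gad2 and 4558 instead of 8214 in cerebellar Gad2 IPs, and the members 5 instead of 3 in cerebellar vGluT2 IPs. The same mice without the block gave 2069 genes (1 member) in cerebral Gad2, 5599 in PV, 5394 in SST and 4683 in cerebellar Gad2 IPs. With this pairing Nf1 turned in cerebral Gad2 (0.14 to -0.12), cerebral vGluT2 (-0.13 to 0.16) and cerebellar Gad2 (-0.31 to 0.21), Dab2ip in PV (-0.054 to 0.12) and Rasal1 in cerebral vGluT2 IPs (0.10 to -0.12). Without the block Nf1 (0.14 to -0.25), Rasa2 (0.34 to -0.31) and Rasal2 (0.35 to -0.23) turned in cerebral Gad2, Dab2ip in PV (-0.054 to 0.13), Nf1 (-0.13 to 0.11) and Rasal1 (0.10 to -0.11) in cerebral vGluT2 and Nf1 in cerebellar Gad2 IPs (-0.31 to 0.12). This fit was chosen after seeing the data. The calls the block changed stand in the report, and it changed no other call. Total RNA of the same line gave 4790 genes and 3 members in cerebral Gad2 IPs, and turned Nf1 (0.14 to -0.060) and Rasa2 (0.34 to -0.12) there and Rasal1 in cerebral vGluT2 IPs (0.10 to -0.019). Both genotypes together turned Dab2ip in PV (-0.054 to 0.058), Nf1 in cerebellar Gad2 (-0.31 to 0.0027), and Rasal1 (0.31 to -0.26) and Rasa2 (-0.39 to 0.25) in cerebellar vGluT2 IPs.

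For the HD effect between the regions, 5 mice of the vGluT2 line gave total RNA of both. With the mouse as a replicate block these mice gave 4067 genes (5 members), against 1383 genes (2 members) in the same mice without it. The fit of all libraries gave 97 genes (1 member). The block with the length index gave 0 genes (0 members) in these mice. There Rasa1 was at 0.75 and Rasa2 at 0.35, against -1.40 and -1.66 in the fit of all libraries. That fit differs in its libraries, the block and the covariate at once. These fits were chosen after seeing the data.

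By line, cerebral total RNA gave 0 genes in the Gad2, 0 in the PV and 0 in the vGluT2 line against 21 together, and 96 with SST total RNA added. Rasal2 went from 0.34 to -0.023 in the Gad2 line and Rasa3 from -0.06 to 0.019 in the vGluT2 line. Cerebellar total RNA gave 0 genes and 0 members in the Gad2 line, with Rasa3 at -0.043 instead of 0.20, and 7565 genes in the vGluT2 line. The length index moved the HD genes called from 285 to 735 in cerebellar and 1 to 4 in cerebral vGluT2 IPs, 21 to 410 in cerebral and 3544 to 88 in cerebellar total RNA (members 4 to 1). It turned Rasa1 (-0.35 to 0.17), Rasa3 (0.024 to -0.073) and Rasa2 (-0.14 to 0.24) in cerebral vGluT2 Rasal2 in SST IPs (-0.036 to 0.11), Rasa1 (0.035 to -0.071) and Rasal2 (0.040 to -0.051) in cerebellar vGluT2 IPs, and Nf1 (-0.56 to 0.16), Rasa1 (-0.91 to 0.18) and Dab2ip (0.13 to -0.019) in cerebellar total RNA. Without the re-sequenced library Rasa1 (0.012 to -0.079), Rasal1 (-0.07 to 0.0055) and Rasal2 (0.011 to -0.075) turned in PV and Rasa3 in cerebral vGluT2 IPs (0.024 to -0.065), and cerebellar Gad2 IPs gave 0 genes, with Nf1 from 0.022 to -0.049.

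With each library left out in turn, HD genes called ranged from 3 to 12 in cerebral Gad2, 0 to 4 in PV, 0 to 1 in cerebral vGluT2, 0 to 1 in SST, 0 to 3 in cerebellar Gad2 and 149 to 255 in cerebellar vGluT2 IPs (members 1 to 2), 4 to 43 in cerebral and 96 to 7408 in cerebellar total RNA (members 1 to 6). The region difference ranged from 33 to 5529 genes (members 1 to 5), Gad2 less PV from 0 to 1 gene, and members of cerebellar vGluT2 IP against total RNA from 2 to 5. In cerebellar total RNA the genes called were 302 without control Gad2 line replicate 2, 104, 104, 127 and 143 without control vGluT2 line replicates 1 to 4, 118 and 7408 without HD Gad2 line replicates 2 and 3, and 1278, 125, 122 and 96 without HD vGluT2 line replicates 1 to 4. Cerebellar vGluT2 IPs kept 1 member called without control replicates 1, 3, 4 or 5 or HD replicates 1, 2 or 3. Of 34 refits between control cells, the call of Rasa3 for cerebral vGluT2 less Gad2 was lost in 6, that of Rasa1 in 9 and of Nf1 in 1 for cerebellar less cerebral vGluT2, and that of Rasa1 in 3 for cerebellar vGluT2 less Gad2. For IP against total RNA, calls were lost for Rasa1 in cerebral Gad2 (4 of 6 refits), Rasa2 in PV (1 of 6), Rasal1 in SST (2 of 5) and Dab2ip in cerebellar vGluT2 IPs (3 of 5).

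Member values whose sign turned with a library left out were all small and uncalled. For HD they were Nf1 in cerebral Gad2 (-0.050 to 0.13), and in PV IPs Rasal2 (-0.075 to 0.097), Rasa3 (-0.11 to 0.034), Rasa1 (-0.15 to 0.20), Rasa4 (-0.047 to 0.26) and Rasal1 (-0.15 to 0.0055). In cerebral vGluT2 IPs they were Nf1 (-0.0007 to 0.15) and Rasa3 (-0.065 to 0.089). In SST IPs they were Dab2ip (-0.042 to 0.12), Rasal1 (-0.20 to 0.038), Rasa4 (-0.18 to 0.015), Rasal2 (-0.14 to 0.12), Nf1 (-0.024 to 0.20), Rasa1 (-0.30 to 0.15), Rasa3 (-0.21 to 0.0005) and Rasa2 (-0.31 to 0.074). In cerebellar Gad2 IPs they were Nf1 (-0.073 to 0.15), Rasa1 (-0.010 to 0.28), Rasa3 (-0.12 to 0.025) and Rasal2 (-0.13 to 0.093), and in cerebellar vGluT2 IPs Rasa1 (-0.10 to 0.16) and Rasal2 (-0.099 to 0.19). In control mice they were Rasa3 for PV IP against total RNA (-0.12 to 0.023), Nf1 for cerebellar vGluT2 less Gad2 (-0.24 to 0.050), Rasa4 for cerebral vGluT2 less Gad2 (-0.18 to 0.094), and Nf1 (-0.13 to 0.0051) and Rasa1 (-0.084 to 0.21) for PV less SST.

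For differences of the HD effect with a library left out, Gad2 less PV turned for Rasa2 (-0.15 to 0.22), Rasa4 (-0.029 to 0.27) and Nf1 (-0.16 to 0.058). Gad2 less vGluT2 turned for Rasa2 (-0.28 to 0.049), Rasal2 (-0.089 to 0.12), Nf1 (-0.15 to 0.079), Rasa1 (-0.34 to 0.035) and Dab2ip (-0.0064 to 0.20). Gad2 less SST turned for Rasa2 (-0.31 to 0.093) and Nf1 (-0.16 to 0.086). PV less vGluT2 turned for Nf1 (-0.056 to 0.087), Rasa3 (-0.16 to 0.016), Rasa2 (-0.29 to 0.067) and Dab2ip (-0.20 to 0.0069). PV less SST turned for Nf1 (-0.088 to 0.12), Rasal1 (-0.12 to 0.12), Rasa3 (-0.039 to 0.14), Rasa2 (-0.32 to 0.093), Rasal2 (-0.090 to 0.14), Dab2ip (-0.020 to 0.19) and Rasa1 (-0.12 to 0.34). The vGluT2 less SST difference turned for Nf1 (-0.10 to 0.095) and Rasa2 (-0.20 to 0.16).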
